A study of Drosophila melanogaster with 9 samples.

Results

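The common response of eye imaginal discs to either of 2 altered genotypes was measured by setting the 6 arrays of rbf1 mutant discs and PSC overexpressing discs against the 3 control arrays. The difference for each gene was the average of both altered group means minus the control mean, and a gene was counted as non-overlapping when its 6 altered values all lay above, or all below, the 3 control values. Of 11983 genes measured, 1038 were non-overlapping and 519 of those also passed the test of the average difference (limma, Benjamini-Hochberg adjusted p under 0.05). These 519 genes, 252 higher and 267 lower, are called the common-response genes here. Membership does not require that each genotype on its own passes a test against control.

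Total RNA of eye discs, taken in the third larval instar, was hybridized to Affymetrix Drosophila Genome 2.0 arrays, with 3 biological replicates per group. By their labels the rbf1 mutants were rbf1120a with Gal4, the PSC discs were w1118 with psc, described as control discs overexpressing PSC, and the controls were w1118 with Gal4. The rbf1120a allele is known as a partial loss of function. The labels name no Gal4 driver, mention no Gal4 in the PSC genotype and do not say whether discs were pooled. Each group is a single stock, so a difference common to both altered stocks cannot be told apart from a feature of the control stock. Values are log2 intensities.

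The eye disc is the larval epithelium from which the adult compound eye forms, and it is patterned behind a wave of differentiation called the morphogenetic furrow. Rbf is the fly retinoblastoma family protein, which binds E2F transcription factors and holds down genes of DNA synthesis. Psc is a subunit of Polycomb repressive complex 1, which maintains gene silencing through chromatin.

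The labels were first checked with the targeted genes. Psc was at 9.95, 9.88 and 10.09 in rbf1 discs and 12.53, 12.49 and 12.50 in PSC discs, against 9.86, 9.86 and 9.80 in control discs. The PSC arrays stood far above all others, and the rbf1 arrays lay just above control. Psc therefore meets both conditions for membership although its average difference of 1.40 is made almost wholly by the PSC group, whose own difference was 2.67, against 0.14 for rbf1. Rbf was at 9.43, 9.51 and 9.31 in rbf1 discs and 9.82, 9.96 and 9.63 in PSC discs, against 9.83, 9.85 and 9.67 in control discs. Its rbf1 values were all lowest, its PSC values overlapped control, and the average difference of -0.17 did not pass (limma adjusted p = 0.292). Markers of the eye primordium were present on every array: eya, a retinal determination gene, lay between 12.37 and 12.62, and so lay between 10.68 and 10.86.

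Across all genes the average difference passed for 876 (7.31%), of which 509 were higher (4.25%) and 367 lower (3.06%). Non-overlap held for 8.66% of genes, 4.4% above control and 4.26% below it, and both conditions held for 4.33%, 2.1% higher and 2.23% lower. The median difference of the common-response genes was 0.32 for those higher and -0.42 for those lower, against 0.002 over all genes. Most of the common response was therefore small on a fold scale. In both genotypes separately the difference reached 2-fold for 14 higher and 16 lower members, and it reached 1.41-fold for 31 higher and 58 lower members. At the threshold, CG9967 was just inside with a difference of 0.28 (adjusted p = 0.0494, limma), and pug just outside with 0.21 (adjusted p = 0.0501, limma).

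The members were spread over expression levels. Cut into 4 equal classes by mean intensity, the dimmest genes held 6 higher and 25 lower members, the second class 70 and 106, the next 102 and 75, and the brightest 74 and 61. The dimmest class covers intensities from 3.03 to 4.78, where array signals approach background. The deposited values carry no detection call, so where a group lies in that class the fold or log2 change is given as measured and is best read as a minimum.

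**Figure D1:**
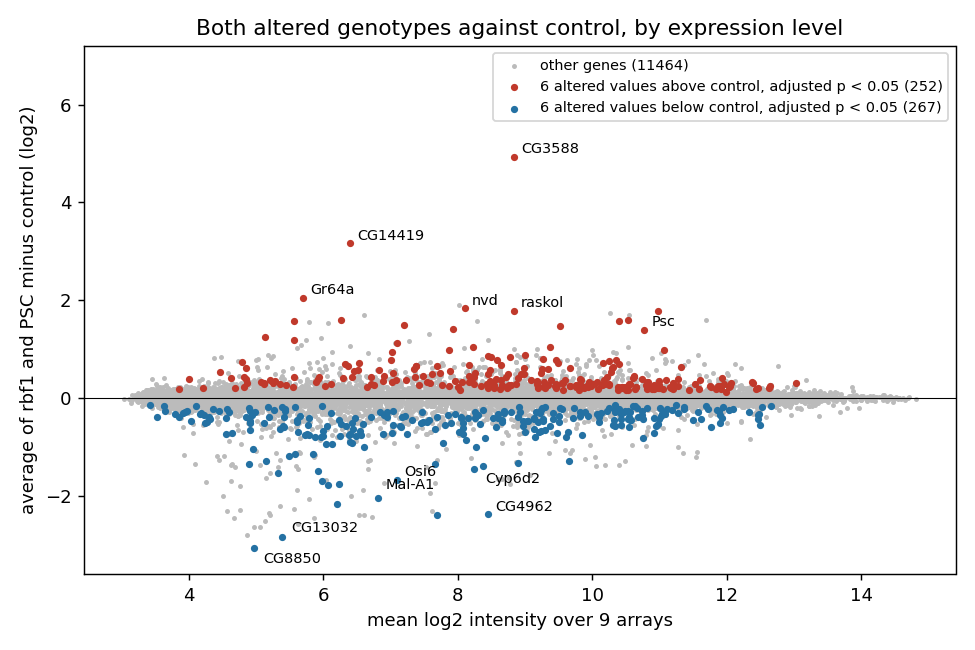
Each point is 1 of 11983 genes, with its mean log2 intensity over 9 arrays on the x axis and the average of the rbf1 and PSC differences from control (log2) on the y axis. The 252 higher and 267 lower common-response genes are coloured, and grey points far from 0 are genes such as Cyp6a17 that were displaced in 1 genotype alone or overlapped between groups. CG3588 stands highest at 4.93 and CG8850 lowest at -3.07.

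A direct test between the altered genotypes asked how alike the responses were in size. Of the 519 common-response genes, 146 (28.1%) differed between rbf1 and PSC discs by limma at the same threshold, with the larger displacement in rbf1 discs for 112 and in PSC discs for 34. Over all genes, 10.6% differed between those genotypes, 6.91% higher and 3.66% lower in rbf1 discs (828 and 438 genes), but centring each array on its median turned this to 580 higher and 748 lower genes. For the other 373 no difference was found, which does not show that their effects are equal. When the 6 altered arrays were fitted as 1 group, so that any gap between the genotypes counted as spread, 160 genes passed, 59 higher and 101 lower, and all 160 were common-response genes. Without the first control array 400 genes met both conditions, 308 of them the same genes.

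The largest common increase was that of CG3588, a gene with no role assigned here. Its main probe set read 10.87, 11.15 and 11.37 in rbf1 discs and 9.66, 10.13 and 9.68 in PSC discs, against 5.65, 5.57 and 5.42 in control discs. Every altered array was far above every control array, and the rbf1 arrays were above the PSC arrays. The average difference was 4.93 (SE 0.14), or 30.5-fold (limma adjusted p = 1.18e-06), and the rbf1 and PSC differences of 5.59 and 4.28 differed from each other. A second probe set of CG3588 was dim, at 5.60 to 5.99 in altered discs and 5.42 to 5.60 in control discs, with a difference of 0.28 that missed the threshold (adjusted p = 0.0631, limma). Averaging its probe sets gave 2.61 for CG3588, so the size of the change depends on which set is read.

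CG14419 was near the floor in control discs. It was at 8.02, 7.44 and 8.46 in rbf1 discs and 7.32, 7.39 and 6.08 in PSC discs, against 4.43, 4.09 and 4.34 in control discs. The groups did not overlap, although the third PSC array was well under the other altered arrays. With control in the dimmest class, the measured rise of CG14419 was 8.97-fold (limma adjusted p = 0.000998), best read as a minimum, with measured differences of 3.69 in rbf1 discs and 2.64 in PSC discs.

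Raskol, which encodes a GTPase activating protein of Ras, had the tightest of the large changes. Its values were 9.39, 9.40 and 9.30 in rbf1 discs and 9.50, 9.52 and 9.48 in PSC discs, against 7.66, 7.73 and 7.55 in control discs. The 6 altered arrays lay close together and far above control, and raskol rose 3.44-fold (limma adjusted p = 1.18e-06). A different probe set of raskol pointed the other way, with 6 altered values below control and a difference of -0.40, and a further set gave 0.10. Averaging the probe sets gave 0.49 for raskol (limma adjusted p = 0.000532), higher still but much smaller, so the size depends on the set read and the direction is not that of every set.

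Some other members of the higher group were bright and well separated, while others were dimmer. The antiviral gene pastrel (pst) was at 11.87 ± 0.10 in rbf1 discs and 11.27 ± 0.07 in PSC discs, against 9.79 ± 0.35 in control discs (SD, n = 3 each), a 3.44-fold rise (limma adjusted p = 0.00031). Rbm13, an RNA binding protein, was at 10.31 ± 0.06 in rbf1 discs and 9.70 ± 0.12 in PSC discs, against 8.53 ± 0.05 in control discs (SD, n = 3 each), a 2.78-fold rise (limma adjusted p = 7.34e-06). For pst and Rbm13 the rbf1 value was the higher of the pair by 0.60 and 0.61, a difference that passed the test between the genotypes. Matrimony (mtrm), an inhibitor of Polo kinase known from the oocyte, had a control mean of 4.77, in the dimmest class. Its measured rise was 2.27-fold, best read as a minimum. CG31821, with a control mean of 6.19, rose 2.84-fold. No difference between the genotypes was found for mtrm or CG31821.

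**Figure D2:**
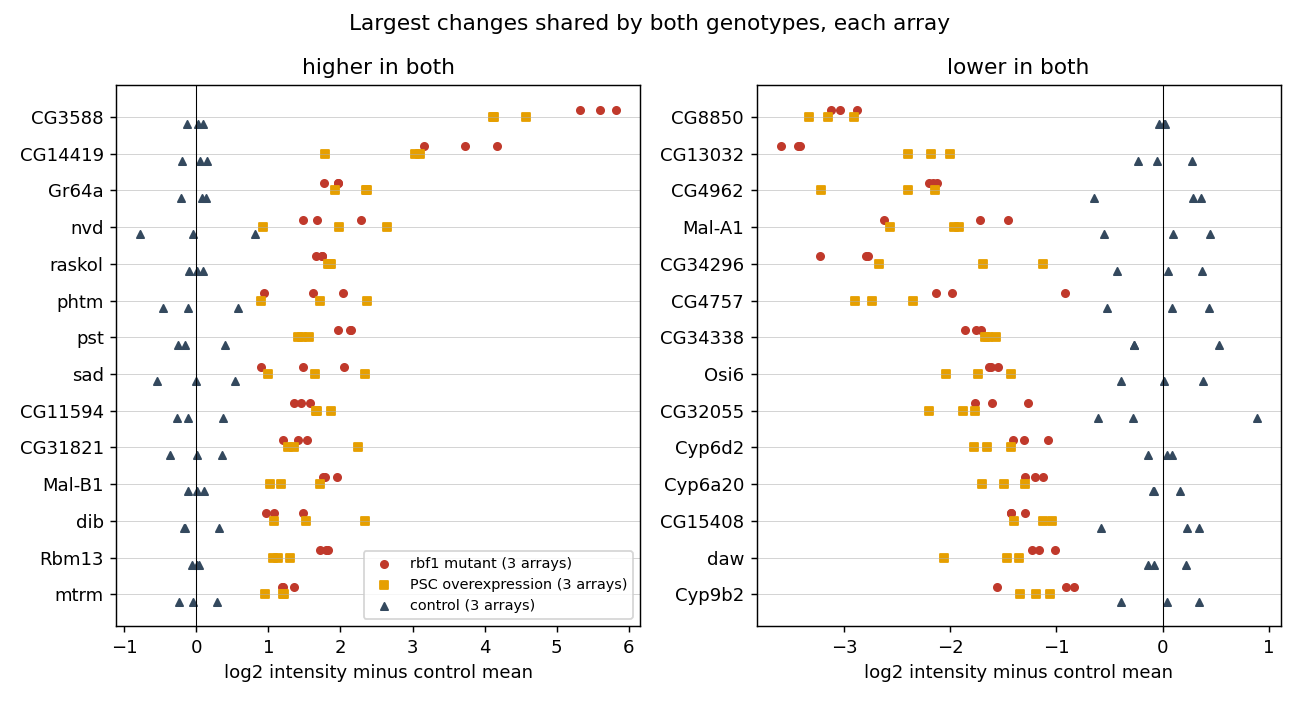
Log2 intensity minus the control mean on the x axis for each array of the 14 common-response genes with the largest increase shared by both genotypes (left) and the 14 with the largest shared decrease (right). In each row the altered points, circles for rbf1 and squares for PSC, lie on one side of the control triangles, with a narrow gap for nvd, sad and phtm and a wide gap for CG3588, raskol and CG8850.

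Sugar taste receptor genes of the Gr64 cluster were among the higher members together with their measured neighbours. Gr64a, a gustatory receptor for sugars, was at 6.29, 6.29 and 6.09 in rbf1 discs and 6.68, 6.67 and 6.25 in PSC discs, against 4.40, 4.11 and 4.46 in control discs. The altered arrays all stood clear of control, which lay in the dimmest class, and the measured rise of Gr64a was 4.16-fold (limma adjusted p = 7.63e-05). Gr64f, a sugar co-receptor that was as dim in control discs, rose by a measured 1.54-fold (limma adjusted p = 0.00411), and its values of 4.95 to 5.32 in altered discs lay above 4.35 to 4.48 in control discs. CG11594 rose 3.02-fold (limma adjusted p = 0.00047), at 6.56 to 7.07 in altered discs against 4.94 to 5.57 in control discs.

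In the gene order of RefSeq, counting measured genes only, Mul1, CG11594, Gr64a and Gr64f followed each other as an unbroken run of 4 higher members, with differences of 0.25, 1.60, 2.06 and 0.62. It was the longest run. Of 517 common-response genes that could be placed, 67 lay in 31 runs of neighbours that moved the same way, and 4 runs held 3 or more genes. The other 3 of those were lower: CG15506, CG34296 and Pcd, then nsr, Cyp6d2 and CG30196, and last pira, Agpat1 and CG32647. Within the Pcd run the differences were unequal, at -0.94 for CG15506, -2.38 for CG34296 and -0.28 for Pcd. Of the 31 runs, 27 were pairs. How many such runs would arise if members lay at random in gene order was not worked out, so these counts do not show clustering. Of 38 measured chemoreceptor and odorant binding genes, 2 were higher members and 1, Obp69a, a lower one, against 2.1% and 2.23% of all genes. The median difference over those 38 genes was -0.02.

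Genes for the making of ecdysone, the moulting steroid, were also among the higher members. In the larva the steroid precursor is built from cholesterol in the prothoracic gland, by the Rieske oxygenase Neverland (nvd) and the P450 enzymes Spookier (spok), Phantom (phtm), Disembodied (dib) and Shadow (sad). Of 10 measured genes on the prothoracic gland list, 4 passed, all higher, and 7 were non-overlapping and higher, with a median difference of 1.27. Over all genes 4.25% passed as higher and 4.4% were non-overlapping and higher. With the 6 altered arrays as 1 group, 0 genes of this list or of the wider ecdysone list passed by limma, while 7 of the 10 had an unadjusted p under 0.05. The list mean of log2 intensity was 9.23, 8.94 and 9.54 in rbf1 discs and 8.78, 9.72 and 9.27 in PSC discs, against 8.22, 8.59 and 7.97 in control discs.

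Values of nvd were 8.56, 8.37 and 9.18 in rbf1 discs and 7.81, 9.53 and 8.87 in PSC discs, against 6.84, 7.71 and 6.11 in control discs. The lowest PSC array was barely above the highest control array, and the average difference was 1.83 (SE 0.44, limma adjusted p = 0.0418). The gene phtm was at 11.09, 10.40 and 11.50 in rbf1 discs and 10.37, 11.83 and 11.18 in PSC discs, against 9.35, 10.04 and 9.01 in control discs. The same arrays stood at the edges as for nvd, and phtm rose 3.03-fold (limma adjusted p = 0.037). The gene sad rose 2.96-fold (limma adjusted p = 0.0369), at 10.25 to 11.69 in altered discs against 8.81 to 9.89 in control discs.

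The clearest of these enzymes was dib, the 22-hydroxylase of the pathway. It was at 8.07, 7.95 and 8.47 in rbf1 discs and 8.06, 9.32 and 8.51 in PSC discs, against 6.83, 7.30 and 6.81 in control discs. All altered arrays were clear of all control arrays, and dib rose 2.67-fold (limma adjusted p = 0.0148). The measured neighbour of dib in gene order, the glucuronosyl transferase Ugt305A1, was a higher member as well, with a difference of 0.75.

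The brightest of the enzymes, spok, overlapped between groups. It was at 12.18, 11.72 and 12.83 in rbf1 discs and 11.41, 12.85 and 12.34 in PSC discs, against 10.58, 11.49 and 9.78 in control discs. Its difference of 1.60 did not pass (limma adjusted p = 0.0683). Ouib, a zinc finger activator of spok, had a difference of 1.13 and the sterol transport gene Npc1a one of 0.51. Both were non-overlapping and neither passed (limma adjusted p = 0.0654 for ouib and 0.0829 for Npc1a). Shade (shd), which makes the active hormone in target tissues outside the gland, had a difference of -0.06, and the paralogue spo had 0.11.

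On nvd, spok, phtm and sad the third control array was lowest and the second highest among controls, the second rbf1 array was lowest among rbf1 arrays, and the first PSC array was lowest and the second highest among PSC arrays. The calls for nvd, phtm and sad were lost when 1 of several single arrays was left out, the third control array included, with adjusted p reaching 0.134 for nvd, 0.127 for phtm and 0.125 for sad. For dib the call was lost without the first or the third control array, with adjusted p up to 0.0627, and with the altered arrays as 1 group (adjusted p = 0.0529, limma). Over all settings the differences ran from 1.45 to 2.24 for nvd, 1.37 to 1.89 for phtm, 1.30 to 1.84 for sad and 1.24 to 1.57 for dib.

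Salivary glue genes, which mark late larvae and salivary gland tissue, moved between arrays within groups. The mean over 6 glue genes was 6.4, 11.75 and 7.11 in rbf1 discs and 9.53, 10.08 and 12.24 in PSC discs, against 6.52, 13.10 and 13.03 in control discs. The groups overlapped, and 0 of 14 measured salivary gland genes passed by limma or were non-overlapping, with 1 at an unadjusted p under 0.05 and a median difference of -0.88. With the glue mean as a covariate the differences stayed close to those above, at 1.82 for nvd, 1.56 for phtm, 1.5 for sad and 1.42 for dib. The adjusted p by limma was then 0.0815 for nvd, 0.0772 for phtm, 0.0771 for sad and 0.0337 for dib, so that dib alone of these 4 passed. Whether tissue of the prothoracic or salivary gland was carried along with the discs was not tested, and fewer cells of a type cannot be told apart from less RNA per cell in these bulk samples.

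**Figure D3:**
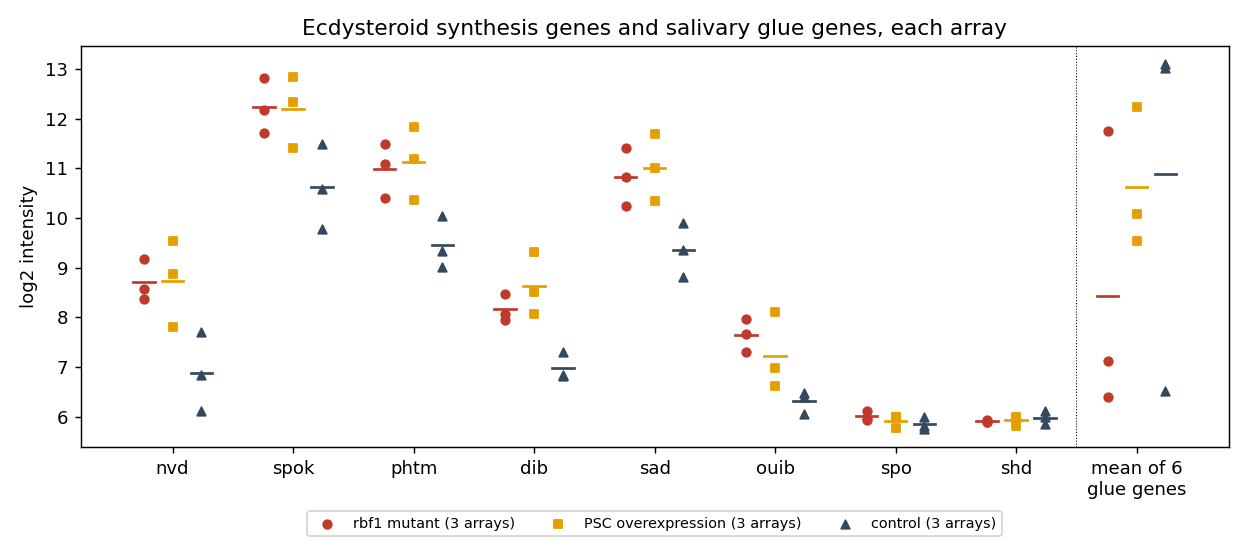
Log2 intensity in each array for 8 genes of ecdysteroid synthesis and for the mean of 6 salivary glue genes, with group means as bars. The rbf1 and PSC points lie above control for nvd, phtm, dib, sad and ouib, the points of spok overlap, spo and shd are level, and the glue mean spans 6.4 to 13.10 with all groups overlapping.

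Ecdysone response genes were read from the wider ecdysone list, which also holds the synthesis enzymes. Of the 27 measured genes on the wider ecdysone list, 4 passed as higher, the enzymes just named, and 2 as lower. Over all genes these shares were 4.25% and 3.06%. The lower ones of the list were MsrA, the ecdysone induced methionine sulphoxide reductase, at -0.31, and the pupal cuticle gene Edg78E at -0.25. The median over the list was -0.004.

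The largest common decrease was that of CG8850, which has no role assigned here. It was at 3.99, 3.90 and 4.14 in rbf1 discs and 4.12, 3.69 and 3.87 in PSC discs, against 7.05, 7.04 and 6.99 in control discs. The altered arrays lay near the bottom of the scale in both genotypes, where further decrease would not show, and the average difference was -3.07 (SE 0.09, limma adjusted p = 1.45e-06). CG13032 was at 3.87, 3.68 and 3.85 in rbf1 discs and 5.28, 4.88 and 5.10 in PSC discs, against 7.56, 7.23 and 7.05 in control discs. Here the PSC arrays lay between the other groups, and the rbf1 decrease of -3.48 was larger than the PSC decrease of -2.20 by a difference that passed the test between the genotypes.

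CG4962 fell by 2.37 on the log2 scale (limma adjusted p = 0.00204), at 6.82 to 7.91 in altered discs against 9.39 to 10.39 in control discs. CG34296 had a difference of -2.38 (limma adjusted p = 0.00382) and CG4757 one of -2.17 (limma adjusted p = 0.00447). CG34338 fell by 1.70 on its main probe set (limma adjusted p = 0.000832), while its second, dimmer set gave 0.07. Averaging both sets left -0.82 for CG34338. CG32055 was at -1.75 and CG15408 at -1.29, each with groups that did not overlap.

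Dawdle (daw), an activin-like ligand of the TGF-beta family, was at 8.28, 8.13 and 8.06 in rbf1 discs and 7.82, 7.23 and 7.93 in PSC discs, against 9.15, 9.21 and 9.51 in control discs. The rbf1 and PSC arrays were close to each other and all well under control, and daw fell by 1.38 (limma adjusted p = 0.00176). Of 12 measured genes of Wnt and TGF-beta signalling, daw was the only lower member, against 2.23% of all genes. The type II receptor gene put was a higher one by 0.13, close to the threshold (limma adjusted p = 0.049), and lost its call in 13 settings.

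Detoxification families were examined next. Of 51 measured cytochrome P450 genes, which encode oxidases of foreign compounds and of hormones, 8 were lower members and 1 a higher one, against 2.23% and 2.1% of all genes. The median difference of the family was -0.12, with 36 of 51 genes below 0. With the altered arrays as 1 group, 4 P450 genes passed, all lower. The lower members were Cyp6d2, Cyp6a20, Cyp9b2, Cyp6a14, Cyp4e2, Cyp301a1, Cyp28d2 and Cyp4g15, and the higher one was Cyp9c1 with a difference of 0.61.

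Cyp6d2 was at 7.80, 8.13 and 7.90 in rbf1 discs and 7.55, 7.43 and 7.78 in PSC discs, against 9.07, 9.25 and 9.30 in control discs. The altered arrays were all well below control, and Cyp6d2 fell by 1.44 (limma adjusted p = 0.000203). Cyp6a20, which is known for an influence on aggression in adult flies, was at 4.59, 4.50 and 4.67 in rbf1 discs and 4.29, 4.09 and 4.50 in PSC discs, against 5.96, 5.71 and 5.71 in control discs. The altered arrays lay in the dimmest class and did not reach the control range, and the measured fall was 1.35 (limma adjusted p = 0.000253). Cyp9b2 fell by 1.15 (limma adjusted p = 0.011). Cyp6a14, at -0.74, lay close to the threshold (limma adjusted p = 0.045) and lost its call when any of several arrays was left out.

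One P450 gene shows why the average alone does not define a common response. Cyp6a17 was at 9.77, 9.34 and 9.74 in rbf1 discs and 4.01, 4.20 and 4.02 in PSC discs, against 9.0, 9.29 and 9.14 in control discs. Its average of -2.30 passed, but the displacement was that of the PSC group, at -5.07, while the rbf1 value was 0.47. It is not a common-response gene.

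The transferases that conjugate such compounds were divided. Among 31 measured glutathione S-transferase genes, 6 were lower members and 0 higher, 24 were below 0, and 1 passed the average test as higher without being a member. Among 12 measured glucuronosyl transferase genes, 2 were higher members and 1 lower. Over all genes 2.1% were higher members and 2.23% lower ones. GstD2 was at 7.28, 7.40 and 7.63 in rbf1 discs and 7.69, 7.78 and 7.97 in PSC discs, against 8.18, 8.13 and 8.19 in control discs, a fall of 0.54 (limma adjusted p = 0.00767). Its rbf1 arrays were lowest, its PSC arrays stood between, and no groups overlapped. GstT3 was at -0.45, GstE1 at -0.43 and GstT4 at -0.43. The PSC value was the lower in each of these 3 genes, but no difference between the genotypes was found for any of them. The call of GstE1 was lost without the second or the third control array. Ugt36A1 was higher by 0.37 and Ugt302C1 was at -0.43.

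**Figure D4:**
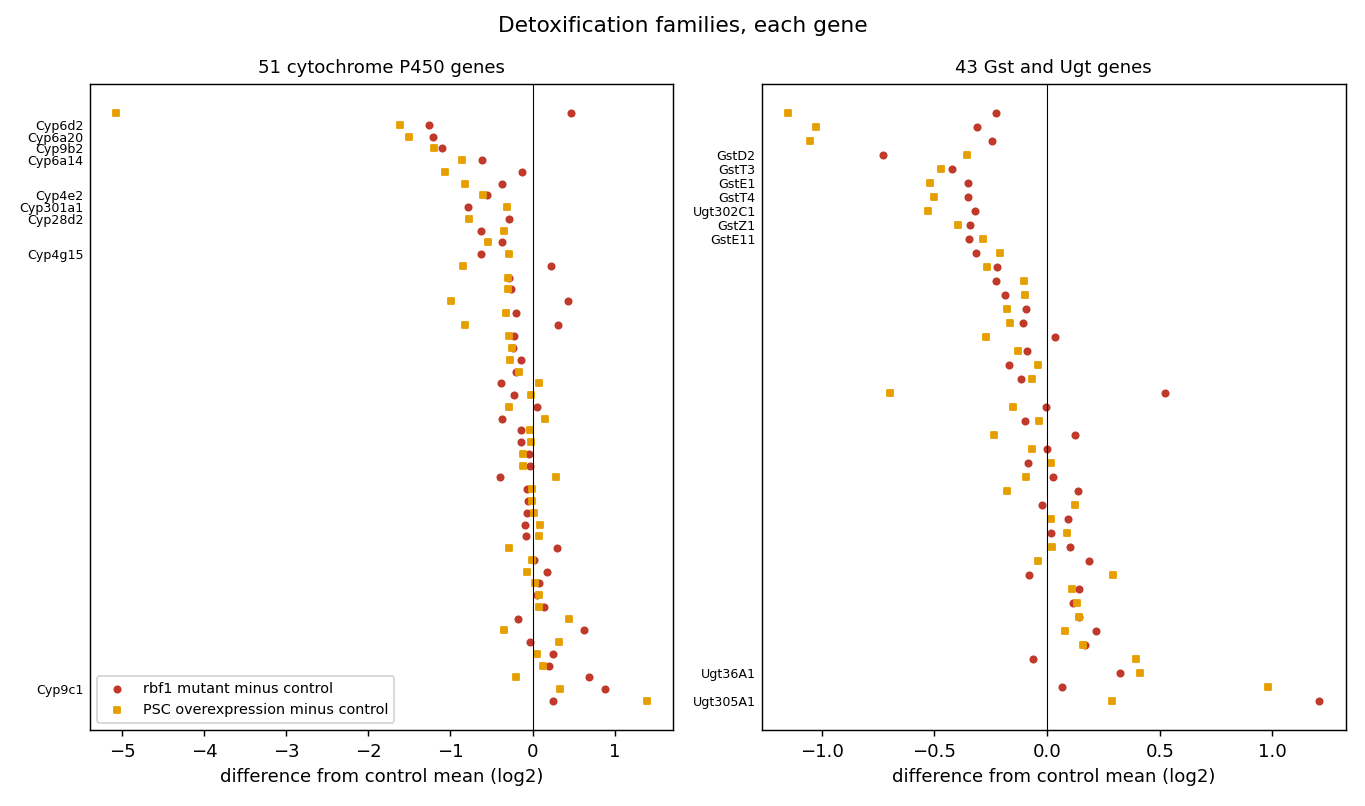
Differences from the control mean (log2) for 51 cytochrome P450 genes (left) and 43 glutathione and glucuronosyl transferase genes (right), 1 row per gene sorted by the average, with circles for rbf1 and squares for PSC. Common-response genes are named. Cyp6d2, Cyp6a20 and Cyp9b2 have both points left of those of the other named P450 genes, and the unnamed gene in the top left row is Cyp6a17, with its PSC point at -5.07 and its rbf1 point at 0.47.

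Genes for sugar digestion and transport held 4 lower members and 1 higher among 20 measured, against 2.23% and 2.1% of all genes, with a median difference of -0.07. The maltase gene Mal-A1 was at 5.55, 6.46 and 6.72 in rbf1 discs and 6.21, 6.25 and 5.61 in PSC discs, against 8.28, 8.63 and 7.62 in control discs. The altered arrays were all clear of control, and Mal-A1 fell by 2.04 (limma adjusted p = 0.00599). A maltase of the other cluster, Mal-B1, moved the opposite way. It was at 6.31, 6.47 and 6.28 in rbf1 discs and 5.70, 6.23 and 5.55 in PSC discs, against 4.63, 4.41 and 4.53 in control discs, and its measured rise from this dimmest class was 2.97-fold (limma adjusted p = 0.000593).

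Mal-B2 fell by 0.69 (limma adjusted p = 0.016), a call lost without the first or the second control array, and sut1, a sugar transporter gene, by 0.28 (limma adjusted p = 0.0372). The glucose transporter gene Glut1 was at 8.64, 8.67 and 8.57 in rbf1 discs and 8.90, 8.91 and 9.04 in PSC discs, against 9.26, 9.34 and 9.46 in control discs. It fell by 0.56 (limma adjusted p = 0.000908), and the decrease was larger in rbf1 discs by a difference that passed. A second Glut1 probe set was lower by -1.26 with no overlap, and a further set gave -0.54 with overlapping groups.

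Genes of cuticle and the apical matrix were lower members in 5 of 40 cases and higher in 0, against 2.23% and 2.1% of all genes, with a median difference of -0.13. Osi6, of the Osiris family of transmembrane proteins, was at 6.58, 6.59 and 6.66 in rbf1 discs and 6.48, 6.17 and 6.79 in PSC discs, against 8.22, 7.82 and 8.59 in control discs. Altered arrays were all well below control, and Osi6 fell by 1.67 (limma adjusted p = 0.00124). It was the only member of 8 measured Osiris genes, all of which lay below 0, with a median of -0.08.

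Dusky-like (dyl), a zona pellucida domain protein of the apical extracellular matrix, was at 6.51, 5.94 and 6.07 in rbf1 discs and 6.03, 6.02 and 6.04 in PSC discs, against 7.04, 6.96 and 6.98 in control discs. It fell by 0.89 (limma adjusted p = 0.00257) with no overlap. The cuticle genes Twdlbeta, at -0.94, and Cpr51A, at -0.42, were lower too, the call of Twdlbeta being lost without the third control array, and Cpr51A was lower in PSC discs than in rbf1 discs by a difference that passed. Lcp65Ae fell by 0.27 among the dimmest genes. Lcp65Af, at -1.22, did not overlap and did not pass (limma adjusted p = 0.0565).

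Genes of DNA replication passed the average test in 37 of 41 cases, all higher, against 4.25% of all genes. Of the 41, 4 (9.76%) were common-response genes, against 4.33% of all genes. The median difference over the list was 1.19 in rbf1 discs and 0.12 in PSC discs. Between the genotypes 38 of 41 differed, against 10.6% of all genes. Mcm2, a subunit of the replicative helicase, shows the pattern, at 12.47, 12.54 and 12.53 in rbf1 discs and 11.19, 11.40 and 11.23 in PSC discs, against 11.19, 11.35 and 11.05 in control discs. Its PSC arrays overlapped control while its rbf1 arrays stood clear above. The 4 members were Orc4, DNAlig1, PolD2 and asf1. The rbf1 differences were 1.28 for DNAlig1, 0.89 for PolD2 and 1.09 for asf1. Their PSC differences were 0.26, 0.19 and 0.14, which did not pass on their own (limma adjusted p = 0.13, 0.311 and 0.289). Orc4, of the origin recognition complex, was at 10.04, 10.30 and 10.22 in rbf1 discs and 9.26, 9.28 and 9.21 in PSC discs, against 8.95, 8.94 and 8.91 in control discs. Both genotypes were above control, and the rbf1 difference of 1.26 exceeded the PSC difference of 0.32 by an amount that passed. With all altered arrays as 1 group, 0 of the 41 passed by limma, and 14 had an unadjusted p under 0.05.

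Of 32 mitosis and G2/M genes, 8 passed, all higher, and 3 were higher members, against 4.25% and 2.1% of all genes. These members were the condensin gene glu, the separase partner thr and the cohesin gene SMC3. The call of SMC3 was lost without the first or the third control array. The gene glu was at 10.81, 10.85 and 10.87 in rbf1 discs and 10.45, 10.49 and 10.31 in PSC discs, against 9.91, 10.06 and 9.80 in control discs. It rose 1.63-fold (limma adjusted p = 0.000721), the groups did not overlap, and it was the 1 gene of its list that passed with all altered arrays as 1 group. Of 15 genes of G1/S control and of the RB, E2F and dREAM proteins, 5 passed as higher and 0 were members. Over all genes 4.25% passed as higher and 4.33% were members.

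Polycomb and Trithorax genes held 3 higher members among 23 measured, against 2.1% of all genes. That count includes Psc, the overexpressed gene, whose average difference was made almost wholly by the PSC group. Beside Psc itself these were Su(z)12, a subunit of Polycomb repressive complex 2, and phol, a DNA binding protein of the group. Su(z)12 was at 12.23, 12.28 and 12.25 in rbf1 discs and 11.84, 11.87 and 11.85 in PSC discs, against 11.76, 11.84 and 11.72 in control discs. The PSC arrays barely cleared the highest control array, and the average difference of 0.28 was mostly that of rbf1 discs. Phol, at 0.18, was close to the threshold (limma adjusted p = 0.0478), and its call was lost in 9 settings. Its difference was 0.27 in rbf1 discs and 0.10 in PSC discs.

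In the piRNA and germline list, 5 of 25 passed, all higher, and 2 were higher members, against 4.25% and 2.1% of all genes. The helicase gene spn-E was at 9.49, 9.32 and 9.44 in rbf1 discs and 8.35, 8.34 and 8.29 in PSC discs, against 8.26, 8.26 and 8.07 in control discs. Its rbf1 arrays stood well above the rest, and its PSC arrays lay just above control. Deadlock (del), a piRNA cluster factor of the ovary, had a difference of 0.38 (limma adjusted p = 0.0264) with values of 0.45 in rbf1 discs and 0.31 in PSC discs, a call lost in 8 settings. Among 11 heat shock and chaperone genes, Hsc70-2 was the 1 member, a lower one of unequal size, at 4.05, 4.52 and 4.62 in rbf1 discs and 6.71, 6.87 and 6.09 in PSC discs, against 7.23, 7.48 and 7.04 in control discs.

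Genes of eye development held 1 member each in the lists of retinal determination (9 genes) and photoreceptor differentiation (23 genes), and 4.33% of all genes were members. The first was toy, a Pax6 homologue, which fell by 0.22 (limma adjusted p = 0.014), at 11.94 to 12.09 in altered discs against 12.20 to 12.26 in control discs. Its other probe sets overlapped between groups, and its call was lost without the second or the third control array. Of 17 furrow and early neurogenesis genes 0 passed by limma, with 3 at an unadjusted p under 0.05, and the photoreceptor member was the sodium pump subunit nrv3 at -0.29. Of the genes of EGF receptor signalling (9 measured), JAK/STAT signalling (8) and the Hippo pathway (12), 0 passed by limma, and 1 in each had an unadjusted p under 0.05. Likewise 0 of 28 ribosome biogenesis genes and 0 of 26 proteasome genes passed by limma, with 3 and 1 at an unadjusted p under 0.05. Cytosolic ribosomal protein genes (25) and gut protease and lysozyme genes (24) had 0 at either threshold in limma.

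The remaining pathway lists held members in shares from 0% (metal response) to 9.09% (DNA repair and checkpoint), against 4.33% of all genes. The bZIP gene Irbp18, the 1 member among 17 genes of the apoptosis and p53 list, was at 10.46 to 10.49 in rbf1 discs and 10.43 to 10.48 in PSC discs, against 10.69 to 10.79 in control discs. It fell by 0.27 (limma adjusted p = 0.00407), a small but evenly shared change. Of 22 DNA repair and checkpoint genes, the double-strand break gene mre11 was higher by 0.27 and Ku80, of the end-joining complex, was at -0.27, both close to the threshold (limma adjusted p = 0.042 for mre11 and 0.0452 for Ku80). The immune transcription factor gene Dif (1 of 17 immune genes) had 0.26 and the respiratory chain gene UQCR-Q (1 of 32) had -0.15. Of 13 metal response genes, 2 passed as lower and 0 were members. The calls of mre11, Ku80, Dif and UQCR-Q were each lost in most of the alternative settings that tested them.

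Marker lists of other tissues held members in varying shares, against 4.33% of all genes. Members made up 3 of 13 fat body genes (23.1%) and 2 of 14 glial genes (14.3%). The median difference was 0.10 over the fat body list and 0.02 over the glial list. Non-overlap held for 2 fat body genes above control and 2 below it, and for 3 glial genes above and 1 below. Among the fat body genes, fat-spondin and Cyp4e2 fell by 0.79 and 0.58 and Adgf-D was higher by 0.32. Among the glial genes, repo, the glial homeobox gene, and htl, an FGF receptor of glia and mesoderm, were higher by 0.38 and 0.21, with larger values in rbf1 discs for both. The haemocyte gene NimC2 had a difference of -0.79 (1 of 19 genes), the muscle gene Mlp60A one of -0.55 (1 of 13), and the neuronal GABA receptor gene Rdl one of -0.71 (1 of 19). The antennal gene dan was at -0.20 (1 of 17), the testis gene tomb at 0.31 (1 of 22), and 0 of 11 tracheal genes passed by limma, with 1 at an unadjusted p under 0.05. The calls of fat-spondin, Adgf-D, htl, Mlp60A, dan and tomb were each lost when some single arrays were left out. For Mlp60A the mean of all its probe sets gave -0.22 (limma adjusted p = 0.0637), and its other sets, at 0.01 and -0.11, overlapped between groups. The part of such tissues in the common response was not tested.

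**Figure D5:**
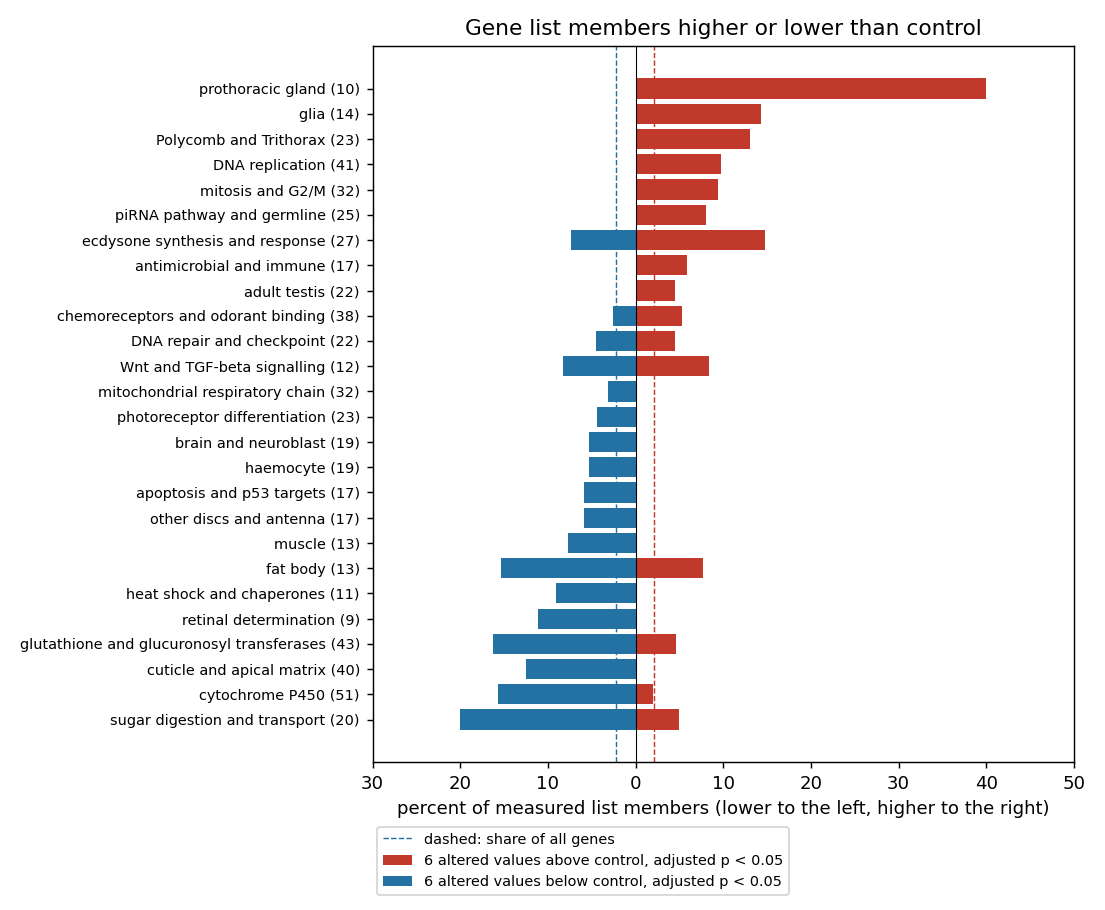
Percent of the measured genes of each list that were higher (right, red) or lower (left, blue) common-response genes, with the number measured in brackets and dashed lines at the shares over all genes, 2.1% higher and 2.23% lower. Only the 26 lists with a member are drawn. The Polycomb and Trithorax bar includes Psc, the overexpressed gene. The prothoracic gland list reaches 40% higher, and the sugar, transferase and P450 lists extend farthest to the lower side.

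Genes measured by several probe sets gave a check inside the array. For 57 common-response genes with further probe sets, 84 other sets were available, of which 59 had the same sign as the set used and 18 (21.4%) were also non-overlapping in the same direction. Over the 1664 other sets of all genes, 6.55% were non-overlapping in either direction. One set, that of raskol described above, passed in the opposite direction. The other sets were dimmer by the way the main set was chosen. Genes known by a CG number alone made up 196 of the 519 members, or 37.8%, against 43.5% of all genes.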

How the data were processed

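The authors deposited log2 intensities per probe set made by RMA, per the submitters' processing notes; no source used here gives the version. RMA compresses differences of dim genes. Of 18952 probe sets, 183 controls and those with several genes (402) or none (4720) were left out of the tests, and the brightest probe set by mean over 9 arrays was kept for each of 11983 genes, 1094 of which had several. Names came from the probe annotation, updated through RefSeq (assembly Release 6 plus ISO1 MT), where 11894 gene identifiers matched. Array medians lay between 5.83 and 5.92, and correlations across genes between 0.9905 and 0.9969 within groups. On the first principal component the third control array was highest (34.91) and the first rbf1 array lowest (-28.37). The other arrays lay between -13.55 and 15.65.

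All 9 arrays entered 1 model of group means in limma 3.58.1 under R 4.3.3 (6 residual degrees of freedom, eBayes, Benjamini-Hochberg over all genes, threshold 0.05), and rbf1 was compared with PSC in the same model. All contrasts against control share the control arrays. Genes named were the 14 highest and 14 lowest common-response genes by the smaller of both effects, up to 4 members of each of 38 lists, and Rbf and Psc, while further genes were chosen after their values were seen. Members and lists were chosen with earlier results of these data known. On simulated data for this contrast over 11983 genes, recovery was 82.1% for shifts of 0.5, 97% for shifts of 1 and 100% for shifts of 2, beside 12 false calls. Each simulated shift was the same in all 6 altered arrays, with noise independent between genes and arrays. The simulation held no gap between the genotypes and no deviation shared across genes, so its rates need not hold for the common-response genes. Plots used matplotlib 3.10.9 (Python 3.11.15). RefSeq start positions were used to order the genes for the runs of neighbours, and sequences were not used here.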

Additional observations from a re-analysis of the deposited data

Results flagged for a closer look

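Some common-response genes differed in size between the altered genotypes, by limma at an adjusted p under 0.05 for rbf1 minus PSC. The rbf1 values were higher by 1.31 for CG3588, 0.61 for Rbm13, 0.60 for pst, 0.94 for Orc4, 1.01 for DNAlig1, 0.70 for PolD2, 0.96 for asf1, 0.43 for glu, 0.58 for thr and 0.21 for SMC3. They were also higher by 0.40 for Su(z)12, 0.15 for put, 0.85 for Obp69a, 0.30 for Cpr51A, 1.09 for spn-E, 0.29 for repo, 0.22 for htl and 0.40 for tomb. Of these, Obp69a and Cpr51A were lower than control in both genotypes, and more so in PSC discs. The rbf1 minus PSC difference was -1.29 for CG13032, -0.37 for GstD2, -0.32 for Glut1, -2.16 for Hsc70-2 and -0.32 for Rdl, so each of these decreases was larger in rbf1 discs. It was -2.53 for Psc and -0.39 for Rbf, the genes used to check the labels.

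Probe sets outside the comparisons, because the annotation gives them no gene or several, were counted apart. Of 5122 such sets, 56 (1.09%) met both conditions, 26 higher and 30 lower, against 4.33% of the genes tested. Among sets with no gene these were 37 of 4720 (0.784%), and among sets with several genes 19 of 402 (4.73%).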

How the results depend on the processing

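With the 6 altered arrays fitted as 1 group, 160 genes passed in place of 876, and 160 in place of 519 met both conditions, the gap between the genotypes then being counted as spread. Non-overlapping genes numbered 665 in place of 1038 among genes above the median level, since fewer genes were tested. Leaving out each array in turn gave 556 to 774 genes past the average test, 1176 to 1798 non-overlapping genes, 400 to 566 meeting both conditions, and 843 to 1288 between rbf1 and PSC. With an array fewer, non-overlapping genes can only be kept or added, so their count is no measure of stability. The lowest average count, 556, came without the first control array. Same-numbered arrays were not paired by the labels or the data (correlations of their deviations -0.438 to 0.588). A replicate block left 923 genes past the average test and 1946 non-overlapping, with 699 meeting both conditions, 449 of them common-response genes. Non-overlap was then read on values adjusted for the replicate number, so 1946 and 699 do not count the same criterion as 1038 and 519. Centring the arrays moved the split between rbf1 and PSC from 828 higher and 438 lower to 580 and 748. Of the 28 genes with the largest shared changes, 24 kept their call in every setting that tested them (genes under the median level were not tested in the brighter set), the others being nvd, sad, phtm and dib, and no named gene reversed. Of 72 named genes, 35 lost their call in the 1-group fit. With 3 arrays a group, small changes near the threshold are the least certain.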
